A study of Mus musculus with 2 samples.

Results

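The genes described here fold, check and export secreted and membrane proteins in the endoplasmic reticulum (ER). They were chosen by name, 40 genes of the 55401 in the deposited feature table. All 40 were found, 39 under the same symbol and 1, Ero1a, under an older one. They fall into 9 roles: 3 chaperones of the Hsp70 and Hsp90 families, 5 J-domain co-chaperones or their partners, 2 lectin chaperones, 6 disulfide isomerases or oxidases, 2 stress-induced secreted factors, 5 stress sensors or transcription factors, 9 factors of ER-associated degradation (ERAD), 6 subunits of the translocation channel or its partner complex, and 2 subunits of the COPII export coat.

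The cells were small-intestinal epithelium of 1 mouse carrying a mutation in TrnA, a transfer RNA gene of mitochondrial DNA (mtDNA), at a mutation load of 73% and an age of 55 weeks. Its RNA and its open chromatin were read from the same droplets with the 10x Multiome assay, as 2 libraries in a joint matrix of 12363 barcodes, of which 9872 were kept. Epithelial cells had been sorted after staining for CD45, CD31, TER-119 and CD326, and the gates are not given in the sources used here. Comparisons run between cell classes within this mouse, without an animal of another genotype, and say nothing of what the mutation does. With 1 animal there is no replicate and no test, and each interval below is a 95% counting interval that covers counting error only.

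Proteins that enter the ER through the Sec61 channel are folded there by chaperones, joined by disulfide bonds and trimmed at their sugars, and then either leave in COPII vesicles or are returned to the cytosol for degradation. When unfolded protein accumulates, the sensors Ern1 (IRE1 alpha) and Atf6 raise the transcription of chaperone, isomerase and degradation genes, Ern1 by splicing the mRNA of the transcription factor Xbp1. Goblet cells, which secrete mucin, and Paneth cells, which secrete antimicrobial peptides, are the intestinal cells best known for depending on this machinery.

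Cells were clustered on RNA from genes that included neither the 40 members nor the related pathway genes, and the clusters were named from marker lists. The classes were goblet-like (1529 cells), Paneth-like (281), enteroendocrine-like (211, hormone-secreting cells), tuft-like (102, chemosensory cells), progenitor-like (1781, stem-like and cycling clusters of the crypt) and enterocyte-like (4281, absorptive cells). The other 1687 cells belonged to no class. The matching marker list was highest in its own class: goblet markers summed to 54471 UMIs per 1000000 nuclear-encoded UMIs (CPM) in goblet-like cells, Paneth markers to 209591 CPM in Paneth-like cells, and enterocyte markers to 25787 CPM in enterocyte-like cells. Goblet and Paneth markers were not absent from enterocyte-like cells, where they summed to 9007 and 7568 CPM, and the part of free RNA in the members' values was not tested. Plasma cells are rich in ER genes, and the 11 markers of B and plasma cells summed to at most 8.99 CPM in any class, with Mzb1 and Tnfrsf17 at 0 UMIs in all 6 classes. The doublet caller marked no cell, so doublets remain.

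RNA levels are given as UMIs (unique molecular identifiers, each 1 captured RNA molecule) per 1000000 UMIs of nuclear-encoded genes, summed over the cells of a class. The choice of scale matters, because mtDNA-encoded RNA took a median of 50.1% of UMIs in goblet-like, 38.2% in Paneth-like, 45.1% in enteroendocrine-like, 53.4% in tuft-like and 54.4% in progenitor-like cells, against 83.0% in enterocyte-like cells. Per UMI of any kind, every log2 ratio to enterocyte-like cells is higher, by 1.27 in goblet-like cells, by 1.64 in Paneth-like cells, by 1.43 in enteroendocrine-like cells, by 1.23 in tuft-like cells and by 1.29 in progenitor-like cells. On that scale 38, 38, 34, 32 and 32 of 39 members were at least 1.5-fold higher in those classes in that order, and 83.6%, 77.7%, 78.4%, 72.5% and 80.4% of all genes were. A member is counted as higher or lower where the classes differed at least 1.5-fold, among genes with at least 20 UMIs over both classes, and Derl3, a degradation channel subunit, missed that minimum in each comparison. The 5 comparisons with enterocyte-like cells share those cells.

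Among promoter sequences, 6 are shown, 1 for each of 6 genes of different kinds that carry a stress-response element, among them Derl3, whose RNA was barely detected. The ER stress element, the sequence through which Atf6 and Xbp1 act on many chaperone genes, was searched on both strands as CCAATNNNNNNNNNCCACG, and its shorter relative ERSE-II as ATTGGNCCACG. RefSeq promoters of build GRCm38.p6, each 300 bases long and running from 250 bases before to 50 bases after the start of transcription, were matched for 33 of the 40 members. The ER stress element was found in 9 of those 33 (Hspa5, Hsp90b1, Calr, Canx, Pdia6, Dnajc3, Creld2, Syvn1 and Derl3), against 39 of 32851 promoters overall (0.119%), and ERSE-II in 2 (Herpud1 and Dnajb11), against 12 promoters overall (0.0365%). All 10 windows around elements that lie before the start fell inside a deposited promoter peak of the same gene. This was likely beforehand, because the windows lie within 250 bases of the start and promoter peaks were taken around the start. A match is a description of letters, not a site of binding. The members were chosen by name, and several are chaperone genes of the kind the ER stress element is known from. Its higher share among them was therefore to be foreseen and is not a finding of these data. Members were counted by gene and the background by promoter. In each line the gene's own strand is written 5′ to 3′ and capitals mark the element; where it begins with CGTGG it lies on the opposite strand.
Hspa5 (chr2:34772003-34772065, plus strand): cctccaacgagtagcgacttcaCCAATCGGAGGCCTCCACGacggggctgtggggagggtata
Hsp90b1 (chr10:86705511-86705678, minus strand): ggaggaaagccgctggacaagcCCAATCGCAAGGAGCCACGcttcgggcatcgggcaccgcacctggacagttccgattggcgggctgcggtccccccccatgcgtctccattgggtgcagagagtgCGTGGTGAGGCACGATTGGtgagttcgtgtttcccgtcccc
Pdia6 (chr12:17266469-17266531, plus strand): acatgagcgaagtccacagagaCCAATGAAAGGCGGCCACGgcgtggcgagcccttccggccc
Creld2 (chr15:88819498-88819560, plus strand): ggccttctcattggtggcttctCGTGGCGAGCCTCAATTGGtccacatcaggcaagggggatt
Herpud1 (chr8:94386355-94386409, plus strand): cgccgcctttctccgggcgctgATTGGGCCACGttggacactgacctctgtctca
Derl3 (chr10:75893220-75893282, plus strand): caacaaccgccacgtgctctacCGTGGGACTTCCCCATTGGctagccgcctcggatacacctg
Hsp90b1 held 2 elements, on opposite strands. The elements of Hspa5 and Pdia6 began 65 and 98 bases before the annotated start, and that of Dnajb11 (ERSE-II) lay after it.

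Summed over all 40 members, the RNA was highest in goblet-like cells with 6189 CPM (6121 to 6258) and in Paneth-like cells with 5470 CPM (5326 to 5617). It was 3648 CPM in enteroendocrine-like, 3928 in tuft-like and 3365 in progenitor-like cells, against 3996 in enterocyte-like cells. Among the 39 members with at least 20 UMIs over the 6 classes, the highest class was goblet-like for 20, Paneth-like for 12, tuft-like for 3, progenitor-like for 1 and enterocyte-like for 3, and enteroendocrine-like for none. Of all 14511 nuclear-encoded genes with that many UMIs, 7.61% were highest in goblet-like, 6.28% in Paneth-like, 18.6% in enteroendocrine-like, 19.7% in tuft-like and 28.1% in progenitor-like cells, against 19.7% in enterocyte-like cells. These shares include genes with few UMIs and are not matched to the members' UMI counts. A few UMIs can make such a gene highest in a small class, as tuft-like cells held 277251 nuclear-encoded UMIs, against 5092404 in goblet-like cells. By role, goblet-like cells also had the highest sum for the COPII subunits, with 361 CPM, against 331 CPM in enterocyte-like cells and 96.2 CPM in progenitor-like cells.

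**Figure D1:**
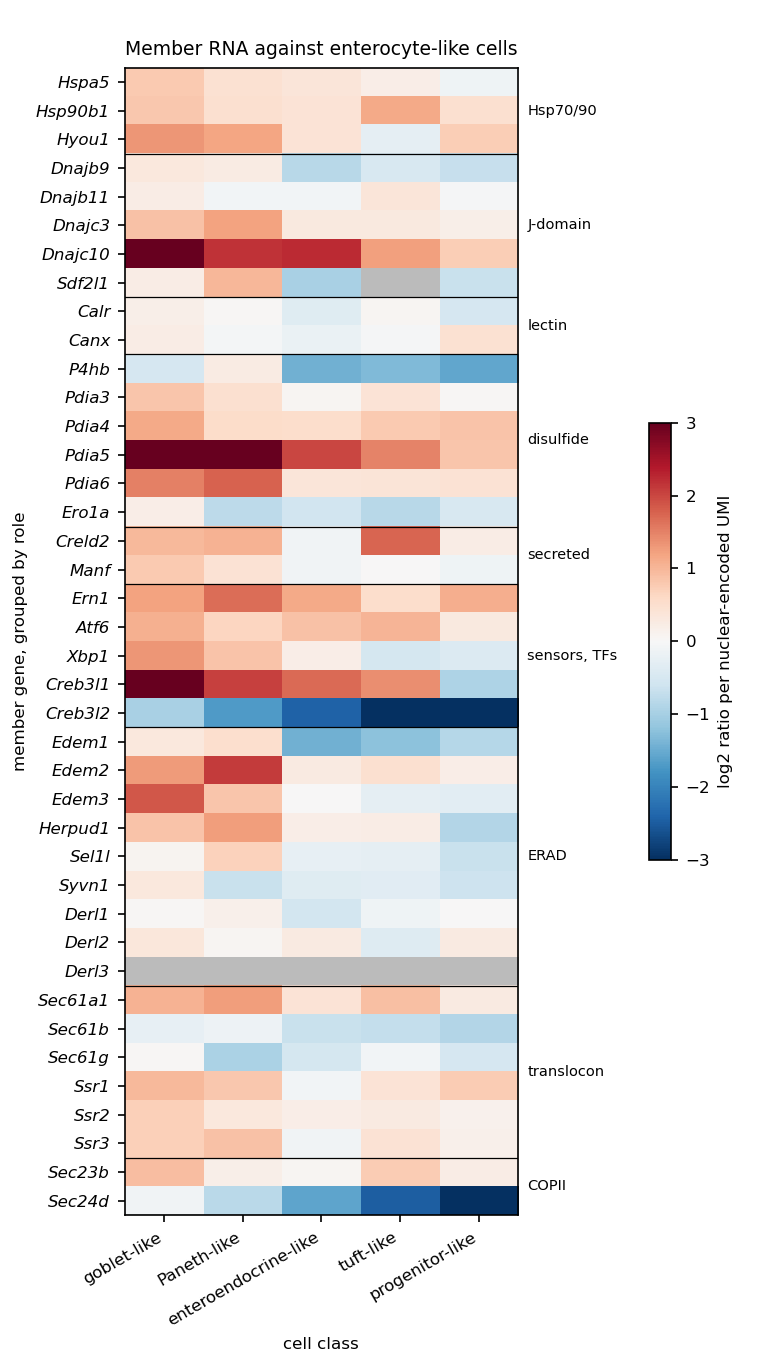
Log2 ratio of each member's RNA per nuclear-encoded UMI to enterocyte-like cells (colour, saturated beyond 3 in either direction), with members in rows grouped by role and the 5 other classes in columns; grey marks Derl3, which was under the minimum, and Sdf2l1, which had 0 UMIs in tuft-like cells. The goblet-like and Paneth-like columns are mostly red, and Creb3l2 and Sec24d are blue in the enteroendocrine-like, tuft-like and progenitor-like columns.

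In goblet-like cells 23 of 39 members were higher than in enterocyte-like cells and 1, Creb3l2, was lower, where 34.2% of all 12557 genes tested were higher and 18.8% lower. The median log2 ratio was 0.79 over members and 0.21 over all genes. In Paneth-like cells 18 members were higher and 5 lower (Creb3l2, Sec61g, Sec24d, Ero1a and Syvn1), where 26.1% of genes were higher and 34.7% lower, with medians of 0.50 over members and −0.15 over all genes. In enteroendocrine-like cells 5 members were higher and 7 lower, where 37.1% of genes were higher and 27.3% lower, with medians of 0.02 and 0.19. In tuft-like cells 9 were higher and 7 lower, where 35.4% were higher and 28.8% lower, with medians of 0.21 and 0.14. In progenitor-like cells 6 were higher and 11 lower, where 46.4% were higher and 21.9% lower, with medians of 0.01 over members and 0.48 over all genes. Per nuclear-encoded UMI, the share of members that were higher thus exceeded that of all genes in goblet-like and Paneth-like cells. It was below that of all genes in the other 3 classes. Per UMI of any kind it exceeded that of all genes in all 5 classes, but that scale shifts every gene's ratio alike. The median log2 ratio over members then stayed below that of all genes in enteroendocrine-like (1.45 beside 1.62) and progenitor-like cells (1.30 beside 1.77). In goblet-like, Paneth-like and tuft-like cells it was above. For members counted as higher or lower per nuclear-encoded UMI, the counting interval excluded no change with few exceptions. These were 1 of the 9 higher in tuft-like cells, Pdia4, and 2 of the 7 lower in enteroendocrine-like cells, Sdf2l1 and Dnajb9. Relative to the median gene, 1 member was higher and 18 lower in progenitor-like cells, where 33.1% of genes were higher and 32.8% lower. Of the members counted as lower per nuclear-encoded UMI, the direction turns per UMI of any kind for Creb3l2 in goblet-like cells, for 4 of 5 in Paneth-like, 3 of 7 in enteroendocrine-like, 2 of 7 in tuft-like and 8 of 11 in progenitor-like cells.

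**Figure D2:**
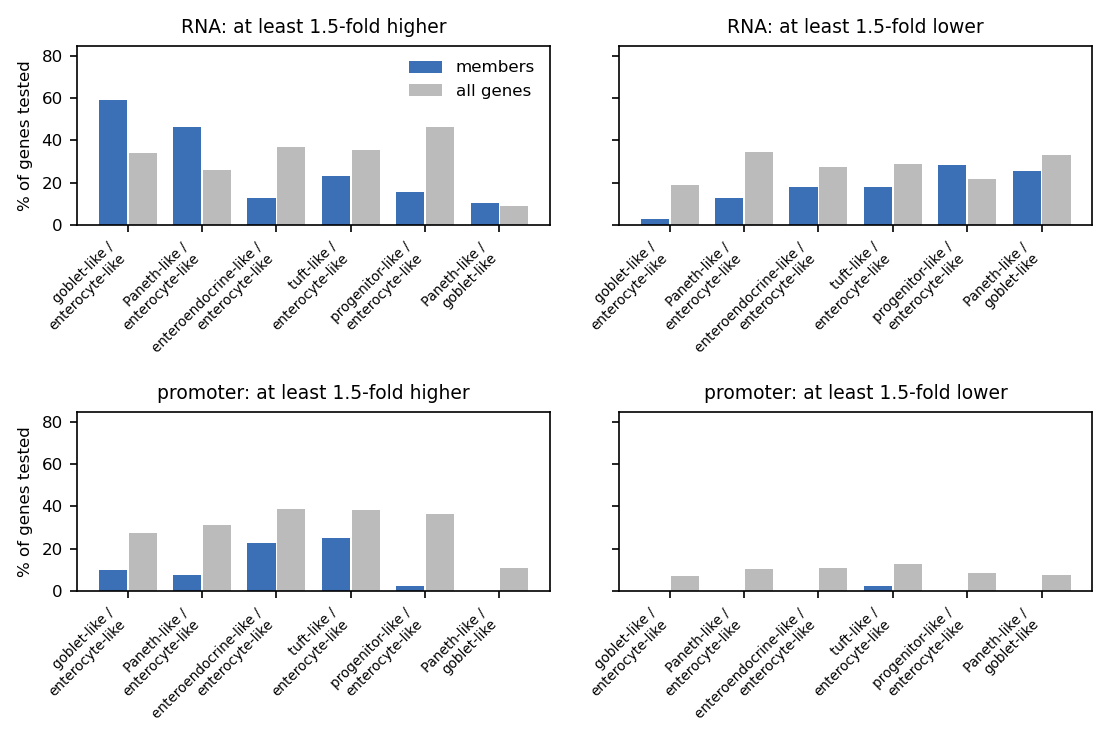
Share of members (blue) and of all genes (grey) that differed at least 1.5-fold in each comparison, in % of those tested, for RNA (top) and promoter fragments (bottom), higher on the left and lower on the right. Blue exceeds grey for RNA higher in goblet-like (23 of 39 members) and Paneth-like cells (18 of 39) and for RNA lower in progenitor-like cells (11 of 39). Blue exceeds grey by little for RNA higher in Paneth-like against goblet-like cells (4 of 39, beside 9.03% of genes). Grey exceeds blue for promoters in every comparison.

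Among the chaperones of the lumen, all 3 were higher in goblet-like cells, where 34.2% of all genes were. Hspa5 (BiP), the Hsp70 that binds newly made chains and keeps the stress sensors inactive, had 323 CPM in goblet-like, 259 in Paneth-like, 241 in enteroendocrine-like, 216 in tuft-like and 172 in progenitor-like cells, against 187 in enterocyte-like cells. Hsp90b1 (GRP94), the Hsp90 of the lumen, was highest in tuft-like cells at 613 CPM (524 to 713, from 170 UMIs), and had 482 in goblet-like, 386 in Paneth-like, 366 in enteroendocrine-like and 387 in progenitor-like cells, against 277 in enterocyte-like cells. Its log2 ratio in tuft-like cells was 1.15 (0.91 to 1.38). Hyou1, a large relative of Hsp70 that acts as an exchange factor for Hspa5, had 43.6 CPM in goblet-like, 40.0 in Paneth-like, 23.2 in enteroendocrine-like, 14.4 in tuft-like and 28.9 in progenitor-like cells, against 17.5 in enterocyte-like cells. The tuft-like value rests on 4 UMIs, so its place below enterocyte-like cells lies within counting error. For Hspa5 the intervals of Paneth-like, enteroendocrine-like and tuft-like cells overlapped one another, and that of goblet-like cells (308 to 339) lay above all of them.

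The J-domain proteins bring substrates to Hspa5. Dnajc10 (ERdj5), which also reduces wrong disulfide bonds before degradation, had 366 CPM in goblet-like, 195 in Paneth-like, 205 in enteroendocrine-like, 101 in tuft-like and 72.4 in progenitor-like cells, against 43.3 in enterocyte-like cells. It was thus higher in all 5 classes, with a log2 ratio of 3.08 (2.87 to 3.29) in goblet-like cells, of 2.17 (1.88 to 2.46) in Paneth-like cells and of 2.24 (1.90 to 2.58) in enteroendocrine-like cells. Dnajc3, a co-chaperone that also restrains the kinase Perk, had 129 CPM in goblet-like, 164 in Paneth-like, 85.7 in enteroendocrine-like, 86.6 in tuft-like and 80.1 in progenitor-like cells, against 70.5 in enterocyte-like cells. Sdf2l1, a partner of Dnajb11, had 16.5 CPM in goblet-like, 27.97 in Paneth-like, 7.14 in enteroendocrine-like, 0 in tuft-like and 8.83 in progenitor-like cells, against 14.1 in enterocyte-like cells. The counting interval of the 0 in tuft-like cells reached up to 13.3 CPM. Dnajb9 and Dnajb11 spanned 19.6 to 43.6 and 49.9 to 68.5 CPM over the 6 classes. In goblet-like cells Dnajc10 and Dnajc3 were the 2 of these 5 genes counted as higher, where 34.2% of all genes were.

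Calr and Canx, which hold glycoproteins that carry a single glucose, were the flattest group. Calr had 173 CPM in goblet-like, 155 in Paneth-like, 118 in enteroendocrine-like, 159 in tuft-like and 108 in progenitor-like cells, against 152 in enterocyte-like cells. Canx was highest in progenitor-like cells with 405 CPM, and had 347 in goblet-like, 286 in Paneth-like, 257 in enteroendocrine-like and 289 in tuft-like cells, against 297 in enterocyte-like cells. Neither passed 1.5-fold in any comparison with enterocyte-like cells.

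The disulfide group held members far above and far below their level in enterocyte-like cells. Pdia5, an isomerase of the lumen, had 131 CPM in goblet-like, 93.9 in Paneth-like, 41.0 in enteroendocrine-like, 28.9 in tuft-like and 18.3 in progenitor-like cells, against 10.3 in enterocyte-like cells. Its log2 ratio was 3.66 (3.24 to 4.11) in goblet-like and 3.19 (2.67 to 3.72) in Paneth-like cells, the highest of the 39 members in both. Pdia6, an isomerase that also attenuates Ern1, had 142 CPM in goblet-like, 171 in Paneth-like, 64.2 in enteroendocrine-like, 64.9 in tuft-like and 67.7 in progenitor-like cells, against 49.8 in enterocyte-like cells. P4hb, the classical protein disulfide isomerase, is also the partner of the microsomal triglyceride transfer protein, which enterocytes use to load lipid onto chylomicrons. P4hb had 269 CPM in goblet-like, 452 in Paneth-like, 139 in enteroendocrine-like, 151 in tuft-like and 130 in progenitor-like cells, against 381 in enterocyte-like cells. Paneth-like and enterocyte-like cells were thus the high classes for P4hb, and it was lower in enteroendocrine-like (log2 ratio −1.45), tuft-like (−1.33) and progenitor-like cells (−1.55). Pdia3, which works with Calr and Canx, and Pdia4 were higher in goblet-like cells, with log2 ratios of 0.83 and 1.14. Ero1a, the oxidase that recharges P4hb, spanned 61.3 to 125 CPM and was lower in Paneth-like (log2 ratio −0.79) and tuft-like cells (−0.83).

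**Figure D3:**
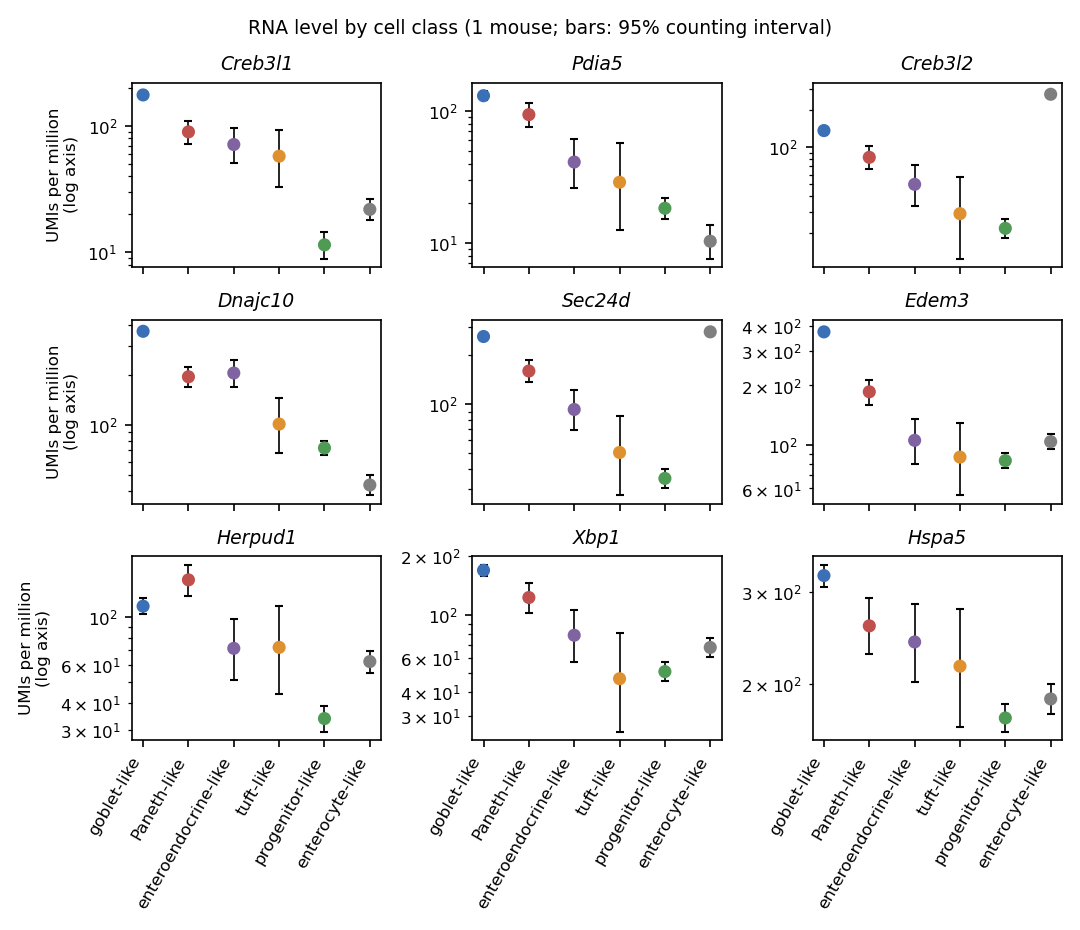
RNA level of 9 members in CPM (log axis, a different range in each panel) in the 6 classes, with points for the class sum and bars for the 95% counting interval. Shown with Xbp1 and Hspa5 are the 7 members of largest spread among those with at least 100 UMIs and with UMIs in all 6 classes. Creb3l2 and Sec24d are highest in enterocyte-like cells (270 and 278 CPM), and 6 of the other 7 are highest in goblet-like cells.

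The 2 secreted factors were higher in goblet-like cells, where 34.2% of all genes were. Manf, which is retained by Hspa5 and released when ER calcium falls, had 155 CPM in goblet-like, 122 in Paneth-like, 83.9 in enteroendocrine-like, 90.2 in tuft-like and 81.4 in progenitor-like cells, against 89.6 in enterocyte-like cells. Creld2 had 18.9 CPM in goblet-like, 20.0 in Paneth-like, 8.92 in enteroendocrine-like, 32.5 in tuft-like and 11.3 in progenitor-like cells, against 9.67 in enterocyte-like cells. The tuft-like value of Creld2 came from 9 UMIs and its interval ran from 14.8 to 61.6 CPM.

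Of the sensors and transcription factors, 4 of 5 were higher in both goblet-like and Paneth-like cells. Of all genes, 34.2% were higher in goblet-like and 26.1% in Paneth-like cells. Xbp1, whose loss in the mouse gut is known to deplete Paneth cells, had 170 CPM in goblet-like, 123 in Paneth-like, 78.5 in enteroendocrine-like, 46.9 in tuft-like and 51.0 in progenitor-like cells, against 67.9 in enterocyte-like cells. These gene-level UMIs do not separate its spliced from its unspliced mRNA. Ern1 was higher in goblet-like (log2 ratio 1.20), Paneth-like (1.66), enteroendocrine-like (1.14) and progenitor-like cells (1.09), and Atf6 in goblet-like (1.06), Paneth-like (0.64), enteroendocrine-like (0.88) and tuft-like cells (1.01). Creb3l1 (OASIS), a membrane-bound transcription factor known from goblet cell maturation in the mouse colon, had 176 CPM in goblet-like, 89.9 in Paneth-like, 71.4 in enteroendocrine-like, 57.7 in tuft-like and 11.4 in progenitor-like cells, against 21.9 in enterocyte-like cells. It had the widest spread of the members with UMIs in all 6 classes, 15.4-fold between goblet-like and progenitor-like cells. Its relative Creb3l2, known for raising COPII genes in cartilage, ran in another order, with 137 CPM in goblet-like, 82.9 in Paneth-like, 50.0 in enteroendocrine-like, 28.9 in tuft-like and 21.9 in progenitor-like cells, against 270 in enterocyte-like cells. Creb3l2 was the lowest-ranked member with UMIs in all 5 comparisons with enterocyte-like cells, down to a log2 ratio of −3.62 (−3.89 to −3.37) in progenitor-like cells.

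The degradation genes split by class. Edem3, a mannosidase that marks glycoproteins for degradation, had 374 CPM in goblet-like, 186 in Paneth-like, 105 in enteroendocrine-like, 86.6 in tuft-like and 83.1 in progenitor-like cells, against 104 in enterocyte-like cells. Its relative Edem2 instead peaked in Paneth-like cells at 134 CPM, with 75.4 in goblet-like, 37.5 in enteroendocrine-like, 43.3 in tuft-like and 35.7 in progenitor-like cells, against 31.1 in enterocyte-like cells. Herpud1, which anchors the ubiquitin ligase complex, had 112 CPM in goblet-like, 148 in Paneth-like, 71.4 in enteroendocrine-like, 72.1 in tuft-like and 33.9 in progenitor-like cells, against 62.0 in enterocyte-like cells. Edem1, the third mannosidase, was not past the fold in goblet-like or Paneth-like cells and was lower in enteroendocrine-like (log2 ratio −1.45), tuft-like (−1.24) and progenitor-like cells (−0.86). Sel1l and Syvn1 form the core of the ubiquitin ligase, and Sel1l was higher in Paneth-like cells (0.69) whereas Syvn1 was lower there (−0.68). Both were lower in progenitor-like cells (−0.67 and −0.62), as was Herpud1 (−0.87). The channel subunits Derl1 and Derl2 stayed within 1.5-fold in all 5 classes. Derl3 had 4 UMIs in goblet-like, 6 in Paneth-like, 0 in enteroendocrine-like, 0 in tuft-like and 1 in progenitor-like cells, against 1 in enterocyte-like cells, too few for a ratio.

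Of the 6 translocation genes, 4 were higher in goblet-like cells, where 34.2% of all genes were. Sec61a1, the channel itself, had 120 CPM in goblet-like, 139 in Paneth-like, 76.7 in enteroendocrine-like, 108 in tuft-like and 69.8 in progenitor-like cells, against 57.8 in enterocyte-like cells. Its small partners did not follow it. Sec61b was highest in enterocyte-like cells at 171 CPM and lower in enteroendocrine-like (log2 ratio −0.68), tuft-like (−0.71) and progenitor-like cells (−0.88), and Sec61g was lower in Paneth-like cells (−0.94). Ssr1 and Ssr3, subunits of the translocon-associated TRAP complex, had 160 and 146 CPM in goblet-like and 144 and 162 in Paneth-like cells, against 81.8 and 88.3 in enterocyte-like cells. In the other classes Ssr1 had 76.7 CPM in enteroendocrine-like, 108 in tuft-like and 138 in progenitor-like cells, and Ssr3 had 82.1, 119 and 98.8 in the same classes. Ssr2 was higher in goblet-like cells alone of the 5 (log2 ratio 0.71).

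The 2 COPII subunits went separate ways. Sec24d, which selects cargo, had 260 CPM in goblet-like, 160 in Paneth-like, 92.8 in enteroendocrine-like, 50.5 in tuft-like and 35.0 in progenitor-like cells, against 278 in enterocyte-like cells. It was thus high in goblet-like and enterocyte-like cells alike and 7.95-fold apart between the highest and the lowest class. Sec23b, its inner-coat partner, had 101 CPM in goblet-like, 59.9 in Paneth-like, 55.3 in enteroendocrine-like, 90.2 in tuft-like and 61.2 in progenitor-like cells, against 52.8 in enterocyte-like cells.

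Paneth-like cells were also set against goblet-like cells, the other secretory class rich in these genes. Of 39 members 4 were higher (Edem2, Sdf2l1, P4hb and Sel1l) and 10 lower, where 9.03% of 11755 genes were higher and 32.9% lower, and the medians were −0.28 over members and −0.32 over all genes. Edem2 had a log2 ratio of 0.83 (0.53 to 1.12), P4hb of 0.75 (0.60 to 0.91) and Sel1l of 0.62 (0.42 to 0.82). Edem3 was the lowest at −1.01 (−1.24 to −0.79), followed by Syvn1 and Ero1a at −0.99 each and Creb3l1 at −0.97. Relative to the median gene, 8 members were higher and 6 lower (17.3% and 18.7% of genes), and per UMI of any kind 8 were higher and 5 lower (19.1% and 17.3% of genes). Antimicrobial peptide and other Paneth markers summed to 209591 CPM in Paneth-like cells, against 5088 CPM in goblet-like cells, and the part of that share in the lower ratios was not tested. Without the goblet-like cluster led by Pdia5, described next, 10 members were higher and 6 lower, where 12.9% of genes were higher and 31.5% lower.

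The goblet-like class held 3 clusters that differed in these genes, although no member was used to make them. They are named here by genes that lead them: Pdia5 (567 cells), Clca1 (326 cells) and Hs3st5 (636 cells). Summed over members, the RNA was 8230 CPM in the Pdia5-led cluster, 4798 in the Clca1-led cluster and 5564 in the Hs3st5-led cluster. Among the clusters of the 6 classes, the Pdia5-led one was the highest for 22 of the 39 members with at least 20 UMIs. It was the highest for 812 of all 14511 genes with that many, a share again not matched to the members' UMI counts. The pairs of clusters compared next were chosen after their values were seen. Against the Hs3st5-led cluster, 19 of 39 members were higher in the Pdia5-led cluster and 3 lower, where 39.9% of 10231 genes were higher and 13.1% lower, with medians of 0.56 over members and 0.37 over all genes. Without the Pdia5-led cluster, 14 rather than 23 members were higher in goblet-like than in enterocyte-like cells, where 28.4% of 11994 genes were.

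The 4 highest ratios in the Pdia5-led cluster were those of Pdia5, Pdia6, Dnajc10 and Creld2. Pdia5 itself, whose ratio gave the cluster its name, had 285 CPM there and 56.9 in the Clca1-led cluster, against 41.9 in the Hs3st5-led cluster. Pdia6 had 246 and 92.8 CPM in those clusters, against 81.0, and Dnajc10 had 655 and 199, against 240. Their log2 ratios between the Pdia5-led and the Hs3st5-led cluster were 1.60 (1.31 to 1.91) and 1.45 (1.28 to 1.63). Hspa5 and Hsp90b1 reached 487 and 734 CPM in the Pdia5-led cluster, against 244 and 295 in the Hs3st5-led cluster. Edem3, Ero1a and Creb3l2 ran the other way, with 324, 88.6 and 87.4 CPM in the Pdia5-led cluster, against 614, 171 and 187 in the Hs3st5-led cluster. Xbp1 differed by less than its counting error, with 190 CPM in the Pdia5-led cluster (170 to 212), against 207 (184 to 231).

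**Figure D4:**
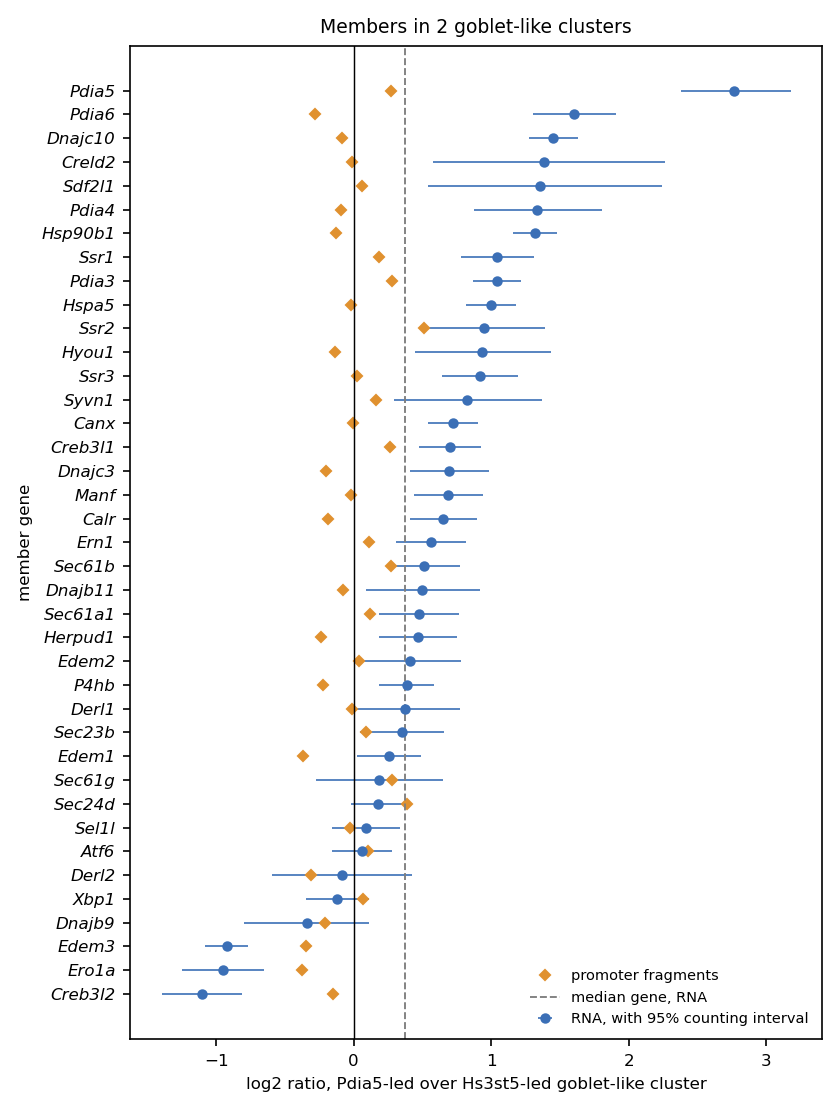
Log2 ratio of each of 39 members between the Pdia5-led and the Hs3st5-led goblet-like cluster, for RNA (circles, with 95% counting intervals) and for fragments in promoter peaks (diamonds), in order of the RNA ratio; the dashed line is the median of all genes for RNA (0.37). RNA ratios run from 2.77 for Pdia5 to −1.10 for Creb3l2, and the diamonds lie between −0.37 and 0.51.

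Other markers moved with these clusters. Goblet markers summed to 32564 CPM in the Pdia5-led and 31649 in the Clca1-led cluster, against 110347 in the Hs3st5-led cluster. Stem markers summed to 2303 and 2315 CPM, against 1018, and cycling markers to 1284 and 987, against 270. Kit was among the 10 leading genes of the Pdia5-led cluster, where no goblet marker was, and was the single detected gene of the 6 in the mast cell list (213 CPM there and 221 in Paneth-like cells, with Cpa3, Mcpt1, Mcpt2, Fcer1a and Cma1 at 0 in goblet-like cells). The Clca1-led cluster had a median doublet score of 0.194, against 0.0368 in the Hs3st5-led cluster, and its enterocyte markers summed to 10552 CPM, against 4052. Against the Hs3st5-led cluster, no member was higher in the Clca1-led cluster and 5 were lower (Edem3, Dnajb9, Creb3l1, Xbp1 and Herpud1), where 37.2% of 10269 genes were higher and 10.8% lower. The part of these differences in the members' values was not tested.

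Within the progenitor-like class, members summed to 2951 CPM in the stem-like cluster (826 cells) and 3649 in the cycling cluster (955 cells). Creb3l1 had 16.5 CPM in the stem-like and 7.99 in the cycling cluster, and Ern1 had 113 and 183. Within the enterocyte-like class, Creb3l2 ran from 195 to 366 CPM over 4 clusters and Sec24d from 222 to 388, each highest in the same cluster of 1268 cells led by Slc5a12. The lowest cluster for Creb3l2 still exceeded both progenitor-like clusters, which had 18.9 and 23.97 CPM. The shallowest enterocyte-like cluster (median 472 nuclear-encoded UMIs) had Hspa5 at 268 CPM, against 142 to 206 in the other 3. Goblet and Paneth markers summed to 17109 and 15750 CPM there, against 5129 to 9740 and 3427 to 8147 CPM in the other 3, and their part in the Hspa5 level was not tested.

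Open chromatin at the start of the members was then compared in the same cells. A promoter peak is a deposited peak within 1000 bases of the annotated start, all 40 members had at least 1 (44 peaks in all), and 15 shared a peak with another gene. Levels are fragments per 1000000 fragments in peaks (FPM). In goblet-like cells 4 of 40 promoters were at least 1.5-fold higher than in enterocyte-like cells and none lower, where 27.4% of genes were higher and 6.95% lower. The counts were 3 and 0 in Paneth-like cells (31.3% and 10.3% of genes), 9 and 0 in enteroendocrine-like cells (38.8% and 10.9%), 10 and 1 in tuft-like cells (38.2% and 12.5%) and 1 and 0 in progenitor-like cells (36.3% and 8.53%). The interval of 1 of the 9 in enteroendocrine-like cells, Ssr2, included no change. Between Paneth-like and goblet-like cells no member promoter passed the fold in either direction, where 10.7% of genes were higher and 7.66% lower. Member promoters passed the fold less often than those of all genes in each comparison, and their median log2 ratios were 0.25, 0.26, 0.35, 0.33 and 0.06 in the 5 classes in the order above, beside 0.25, 0.27, 0.39, 0.39 and 0.32 for all genes. The shares of all genes include promoters with few fragments. A minimum of 100 fragments left the member counts unchanged, and 22.7%, 22.4%, 30.0%, 31.3% and 32.8% of genes were then higher in the 5 classes. Between Paneth-like and goblet-like cells 5.37% of genes were then higher and 3.58% lower.

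The promoter of Creb3l1 was past the fold in all 5 classes. It had 13.1 FPM in goblet-like, 13.2 in Paneth-like, 10.4 in enteroendocrine-like, 11.1 in tuft-like and 10.4 in progenitor-like cells, against 4.49 in enterocyte-like cells. All 5 classes were thus higher, by log2 ratios of 1.21 to 1.56, although its RNA was lower in progenitor-like than in enterocyte-like cells. The promoter of Dnajc10 had 37.8 FPM in goblet-like, 28.2 in Paneth-like, 38.8 in enteroendocrine-like, 23.3 in tuft-like and 23.1 in progenitor-like cells, against 22.5 in enterocyte-like cells. It was past the fold in goblet-like (log2 ratio 0.75) and enteroendocrine-like cells (0.79). Pdia3 and Ssr2 were the other 2 promoters higher in goblet-like cells (0.65 and 0.77). The peak of Pdia3 was shared with Catsper2. With shared peaks left out, 3 of 25 member promoters were higher in goblet-like cells, where 30.5% of genes were.

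For other members with large RNA ratios the promoter differed little. That of Pdia5 had 22.1 FPM in goblet-like, 23.2 in Paneth-like, 25.4 in enteroendocrine-like, 19.3 in tuft-like and 14.6 in progenitor-like cells, against 18.7 in enterocyte-like cells. Creb3l2, the member with the lowest RNA ratios, had 53.5, 51.4, 55.2, 52.7 and 47.4 FPM in the same 5 classes, against 57.6 in enterocyte-like cells. Sec24d was the single promoter past the fold downward, in tuft-like cells, with 21.3 FPM (13.2 to 32.5) against 36.3 in enterocyte-like cells. The promoter of Derl3 was read with 39.8 FPM in goblet-like and 40.3 in Paneth-like cells, against 32.0 in enterocyte-like cells, although its RNA was barely detected. Of the 23 members whose RNA was higher in goblet-like cells, 4 also had a higher promoter and 19 had a promoter within 1.5-fold. Of all 3228 genes with higher RNA there and enough fragments, 30.5% had a higher promoter and 68.6% one within 1.5-fold. Across the 39 members, which share both libraries, the log2 ratios of RNA and promoter in goblet-like cells had a Pearson correlation of 0.44 and a Spearman correlation of 0.16. Between the Pdia5-led and Hs3st5-led goblet-like clusters no member promoter passed the fold, where 21.7% of genes were higher and 4.64% lower.

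**Figure D5:**
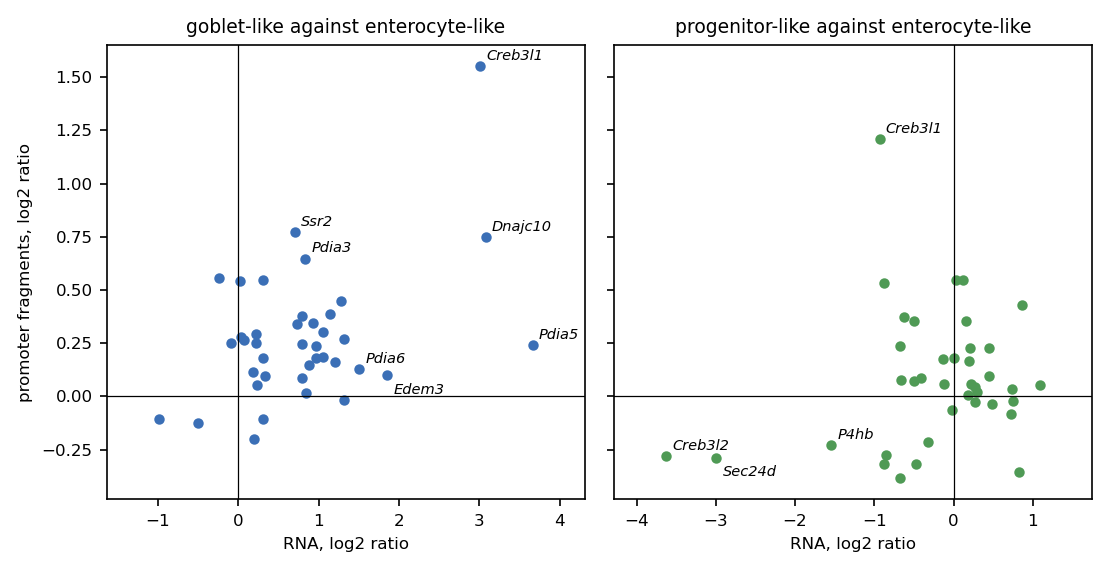
Log2 ratio of promoter fragments (vertical) against log2 ratio of RNA (horizontal) to enterocyte-like cells, 1 point for each of 39 members, in goblet-like (left) and progenitor-like cells (right). Creb3l1 stands highest on the vertical axis in both panels (1.55 and 1.21) while its RNA ratio is 3.01 in goblet-like and −0.93 in progenitor-like cells.

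Genes of the same pathway outside the 40 were counted from lists that hold no member. Of all genes tested, 34.2% were higher and 18.8% lower in goblet-like cells, with a median log2 ratio of 0.21. In Paneth-like cells 26.1% of all genes were higher and 34.7% lower, with a median of −0.15. In goblet-like cells 7 of 11 genes of the oligosaccharyltransferase, which attaches sugars to new chains, were higher and none lower (median log2 ratio 0.66), as were 9 of 19 factors of signal recognition and translocation, with 1 lower (0.55), and 9 of 17 other thiol oxidoreductases, with none lower (0.68). That last list holds Agr2, which is also a goblet marker. In Paneth-like cells the counts were 6 and 0 of 11, 11 and 2 of 19, and 8 and 2 of 15. Among the oxidoreductases Qsox1, which forms disulfides late in the secretory path, had log2 ratios of 3.22 (2.94 to 3.52) in goblet-like and 3.73 (3.41 to 4.06) in Paneth-like cells, and Txndc5 of 3.21 and 2.00. Prolyl isomerases and exchange factors were higher for 7 of 10 genes in goblet-like and 5 of 7 in Paneth-like cells. Among them Sil1, an exchange factor of Hspa5, had 704 UMIs in goblet-like and 1042 in progenitor-like cells, against 82 in enterocyte-like cells.

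Of the stress sensors and effectors outside the 40, 8 of 16 were higher and 2 lower in goblet-like cells. The counts were 4 and 5 of 15 in Paneth-like, 4 and 5 of 15 in enteroendocrine-like, 3 and 9 of 15 in tuft-like and 2 and 8 of 15 in progenitor-like cells. Of all genes tested, 34.2% were higher and 18.8% lower in goblet-like cells, and 26.1% and 34.7% in Paneth-like cells. The shares were 37.1% and 27.3% in enteroendocrine-like, 35.4% and 28.8% in tuft-like and 46.4% and 21.9% in progenitor-like cells. Ern2 (IRE1 beta), the sensor known from gut and airway mucous cells, had the highest ratio of its list in goblet-like cells, 5.05 (4.55 to 5.61) from 1137 UMIs against 32 in enterocyte-like cells, and in Paneth-like cells, 4.71 (4.16 to 5.30). Creb3l3, a liver and gut transcription factor of lipid metabolism, was the lowest in both, at −2.48 and −3.59.

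Of 21 other COPII factors and cargo receptors, 5 were higher and 6 lower in goblet-like cells (median log2 ratio −0.33, beside 0.21 for all genes). They were 3 and 8 in Paneth-like, 1 and 13 in enteroendocrine-like, 3 and 11 in tuft-like and 1 and 13 in progenitor-like cells. The shares of all genes higher and lower in each class are those given above for the stress sensors. Ergic1, a cargo receptor of the intermediate compartment, was the highest of the list in all 5 classes, with log2 ratios of 2.82 in goblet-like and 3.28 in Paneth-like cells, though its interval in tuft-like cells (−0.18 to 2.00) included no change. Sec16b, an organiser of ER exit sites, was among the 2 lowest in all 5, from −1.34 in goblet-like to −2.94 in tuft-like cells. Of the COPI coat, p24 and KDEL receptor genes, which serve retrieval, 4 were higher and none lower of 22 in goblet-like cells, and 4 were higher and 6 lower of 23 in Paneth-like cells. In enteroendocrine-like, tuft-like and progenitor-like cells 12 of 22 were lower in each, and 2 were higher in progenitor-like cells and none in the other two. Glycan trimming genes were higher for 3 of 6 in goblet-like and 5 of 6 in progenitor-like cells, with Uggt1, which re-marks misfolded glycoproteins, between 1.39 and 1.69 in all 5 classes. Of 18 other ERAD factors 3 were higher and 1 lower in goblet-like cells (median 0.29), where 34.2% of all genes were higher and 18.8% lower.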

How the data were processed

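RNA and open chromatin were read from the same cells of 1 mouse. The deposited matrix holds raw counts (UMIs for genes, and counts in peaks), made with Cell Ranger ARC 2.0.2 per the file headers, and build mm10 is named in the submitters' processing notes. The totals were 71697164 UMIs and 197564789 counts in peaks. Barcodes with at least 500 UMIs, 300 genes and 1000 peak counts were kept, with medians of 5591 UMIs, 1547 nuclear-encoded UMIs and 12884.5 peak counts.

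Peak values, 87.6% of them even, were halved and rounded up to fragments. Doublet scores came from Scrublet in scanpy 1.11.5. Its automatic threshold (0.625) marked 0 cells and so did not work here. The scores themselves were used to compare clusters and, in an alternative, to leave out the highest 8%. Cells were clustered on a seeded random set of 27601 genes, with 27800 held out (the members, pathway and mtDNA genes among them), from 1500 variable genes, 30 principal components, 15 neighbours and Leiden resolution 1 (leidenalg 0.10.2). A cluster was named when the median log2 ratio of a marker list with at least 3 detected markers reached 0.4 and exceeded the next list by 0.4, with no more markers of another list than of its own among its 10 leading genes (lists with under 3 detected markers not counted), a rule set with the clusters in view; clusters with depth over 3 times below the median also needed a marker of their own among their 10 leading genes.

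UMIs were summed per class. Levels have exact Poisson intervals and ratios exact conditional binomial intervals (scipy 1.17.1), with 95% confidence; UMIs and fragments of 1 animal are not independent animals. Levels were printed for the 3 members of each role with the widest spread over classes and at least 100 UMIs, and for Hspa5 and Xbp1; ratios and promoter values for the 4 highest and 4 lowest members of a comparison; and the 2 highest and 2 lowest genes of a pathway list. Other named members were chosen after their values were seen. The members and lists were chosen with earlier results of these data known. Alternatives changed the library size, minimum, fold, clustering, filters and promoter window. The ratio step was tested on simulated counts. The 3 alternatives that leave out a cluster were added after the data were seen.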

Additional observations from a re-analysis of the deposited data

How the results depend on the processing

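The 24 counts of members past the fold were recomputed under alternatives, 19 in all, some of them for RNA alone and some for promoters alone. Of 300 values, 254 stayed within 1.5 times the main count. These include values that could not change, because the cluster left out belonged to neither class compared. The library size of all UMIs gave, higher and lower, 38 and 0 in goblet-like, 38 and 0 in Paneth-like, 34 and 1 in enteroendocrine-like, 32 and 3 in tuft-like and 32 and 2 in progenitor-like against enterocyte-like cells, and 8 and 5 in Paneth-like against goblet-like cells. Centring on the median gene gave 2 lower in goblet-like, 1 higher and 18 lower in progenitor-like, and 8 higher and 6 lower in Paneth-like against goblet-like cells. A fold of 2 gave 12 and 0 in goblet-like, 11 and 1 in Paneth-like, 1 and 3 in progenitor-like, and 0 and 1 in Paneth-like against goblet-like cells, and 4 lower in enteroendocrine-like cells. Leaving out the Pdia5-led cluster gave 14 and 2 in goblet-like cells and 10 and 6 in Paneth-like against goblet-like cells, and leaving out the Clca1-led cluster, which has high doublet scores, gave 2 higher in the second. Weighting every cell the same gave 13 lower in enteroendocrine-like cells. Leaving out cells above 80% mtDNA-encoded UMIs gave 7 lower, and Leiden resolution 0.5 gave 3 higher, in progenitor-like cells. For promoters a fold of 2 gave 1 higher in goblet-like, 1 in Paneth-like, 1 in enteroendocrine-like and 3 in tuft-like cells, with 0 lower in tuft-like cells. A library size of fragments in promoter peaks gave 1 higher in Paneth-like, 2 in enteroendocrine-like and 3 in tuft-like cells. Clusters made from ATAC peaks gave 9 higher in Paneth-like and 18 in tuft-like cells, 0 lower in tuft-like cells, and 1 lower in Paneth-like against goblet-like cells. A fold of 2 and a minimum count change the counts by their own construction; for the other settings the cause was not tested. Tuft-like values rest on 277251 nuclear-encoded UMIs, against 4754878 in enterocyte-like cells, so the counting interval of a 0 there reaches up to 13.3 CPM. No paired analysis was possible because there is 1 animal and no result comes from a test.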

Other observations

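Of the cells in no class, 1024 formed a cluster led by Gsdmc2 and Car4, with a median of 2590 nuclear-encoded UMIs. Members summed to 4681 CPM there, and their median log2 ratio to enterocyte-like cells was 0.32, beside 0.28 for all genes. Ern1 stood out with 305 CPM and a log2 ratio of 2.07 (1.89 to 2.25), above its level in each of the 6 classes. Canx had 586 CPM (log2 ratio 0.98). Creb3l1 was low, with a log2 ratio of −0.99, and so were Creb3l2 (−2.21) and Sec24d (−1.23), as in progenitor-like cells.

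A further 638 cells of low depth (median 508 nuclear-encoded UMIs) formed a cluster led by Fgfbp1 and Cdc20, in which members summed to 5640 CPM. Goblet and Paneth markers summed to 14792 and 13694 CPM there, against 9007 and 7568 CPM in enterocyte-like cells, and their part in the members' values was not tested. Their median log2 ratio was 0.70, beside 0.33 for all genes. The small channel subunits Sec61b and Sec61g, which stayed below 1.5-fold higher in goblet-like and Paneth-like cells, had log2 ratios of 0.97 (0.72 to 1.21) and 1.06 (0.58 to 1.52) there, and Ssr2 and Ssr3 of 1.19 and 1.09. Creb3l2 was again low (−2.90).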
